A study of Homo sapiens with 9 samples.

Results

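The 9 genes described here encode chains of MHC class II molecules, their chaperones and their transcriptional coactivator: HLA-DRA, HLA-DRB1, HLA-DRB5, HLA-DPA1, HLA-DPB1, HLA-DMA, HLA-DMB, CD74 and CIITA. They were taken by symbol from the 23710 entries of a table of read counts, and all 9 were among the 12546 genes that passed a filter on low counts. The set was put together after these genes had been seen to differ between the groups in the same libraries. Their levels and differences are therefore given as a description, with no p-value.

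RNA was sequenced from MDA-MB-231, a widely used human line of triple-negative breast cancer, in 3 groups of 3 libraries. All cells had received a lentiviral pGIPZ vector and were cultured in DMEM with 5% FBS. The vector expressed a short hairpin RNA that was non-targeting (shNT) or directed against UGDH (shUGDH-1 or shUGDH-2). UGDH encodes UDP-glucose 6-dehydrogenase, which makes the UDP-glucuronate that cells build into hyaluronan and sulfated glycosaminoglycans, and the comparisons ask which transcripts differed after its knockdown and whether they differed with both hairpins. The labels call the samples biological replicates of cells grown in culture and do not state whether each was transduced separately, so a p-value here reflects only how much the sequenced libraries varied.

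MHC class II molecules are pairs of an alpha and a beta chain that carry peptides from the endosomal route to the cell surface, where CD4 T cells read them. The invariant chain, encoded by CD74, escorts new class II pairs to endosomes and fills their groove, and HLA-DM (HLA-DMA with HLA-DMB) then removes its last fragment so that peptides can bind. Transcription of these genes is governed by CIITA, a coactivator that does not bind DNA itself but docks on RFX, CREB and NF-Y proteins at a conserved promoter block of X and Y boxes, and that many non-immune cells switch on only after interferon-gamma.

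The hairpins define the groups, and their sequences are shown because the class II genes differed between the 2 hairpins against UGDH. Each is printed as the labels give it, with bases 2 to 8 in capitals.
shNT: aTCTCGCTtgggcgagagtaag
shUGDH-1: tTGCATCAaatatgcgacg
shUGDH-2: aTATACTTcagatctgctg
The capital stretches of shUGDH-1 and shUGDH-2 are different letters, so the hairpins share a target gene and not that stretch. Against 9 coding UGDH transcripts of GENCODE v29, shUGDH-1 was fully complementary to 5, shUGDH-2 to 6 and shNT to 0. No hairpin had a full complement in the transcripts of the 9 class II pathway genes. Shorter matches, such as to the capital stretch, were not searched for, so an effect of a hairpin through them was not tested.

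The promoters of these genes are shown because CIITA is recruited through them. RefSeq promoters of GRCh38.p14, from 250 bases before to 50 bases after each transcript start, were searched for an X-type motif (the letters CNAGNNAC) followed after 10 to 40 bases by a Y-type motif (ATTGG or its reverse complement CCAAT). Both strands were read. The table held a promoter for 7 of the 9 genes. The pair was found in 4 of them: HLA-DRB1, HLA-DRB5, HLA-DMA and CD74. Capitals mark the motifs, and all 4 promoters are read along the minus strand, on which these genes are transcribed.
HLA-DRB1, chr6:32589882-32589937: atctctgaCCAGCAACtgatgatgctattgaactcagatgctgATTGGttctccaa
HLA-DRB5, chr6:32530365-32530420: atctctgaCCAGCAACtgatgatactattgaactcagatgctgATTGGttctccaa
HLA-DMA, chr6:32953164-32953220: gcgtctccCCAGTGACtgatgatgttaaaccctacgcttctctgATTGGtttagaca
CD74, chr5:150412951-150413001: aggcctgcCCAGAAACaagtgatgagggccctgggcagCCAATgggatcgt
The HLA-DRB1 and HLA-DRB5 stretches of 56 bases differed by 1 substitution, G24A, counted from 1 at the left end with the HLA-DRB1 base first. The motifs lay 27 bases apart in both HLA-DRB promoters, 28 in HLA-DMA and 22 in CD74, where the Y-type motif stood in the opposite orientation.

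HLA-DMB, HLA-DPA1 and HLA-DPB1 each had a window that held part of the pair. HLA-DMB and HLA-DPA1 had the X-type letters with no Y-type motif in the searched distance, and HLA-DPB1 had the Y-type letters without the X-type. A second HLA-DPA1 window held neither.
HLA-DMB, minus strand, chr6:32941067-32941126: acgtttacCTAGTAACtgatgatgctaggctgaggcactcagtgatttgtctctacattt
HLA-DPA1, minus strand, chr6:33073699-33073758: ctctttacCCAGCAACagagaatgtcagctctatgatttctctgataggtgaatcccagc
HLA-DPB1, plus strand, chr6:33075847-33075903: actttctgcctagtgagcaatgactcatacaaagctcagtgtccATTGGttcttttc
Among 35116 promoters of the same 300 bases, 2.27% held the pair, 39.3% the X-type motif and 34.6% the Y-type motif. The motif letters were written after these promoters had been read, so the matches describe the promoters and support nothing. The 4 genes whose promoters hold the pair had log2 differences from -0.76 (HLA-DRB5) to -0.09 (HLA-DMA) with shUGDH-1, as described below.

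**Figure D1:**
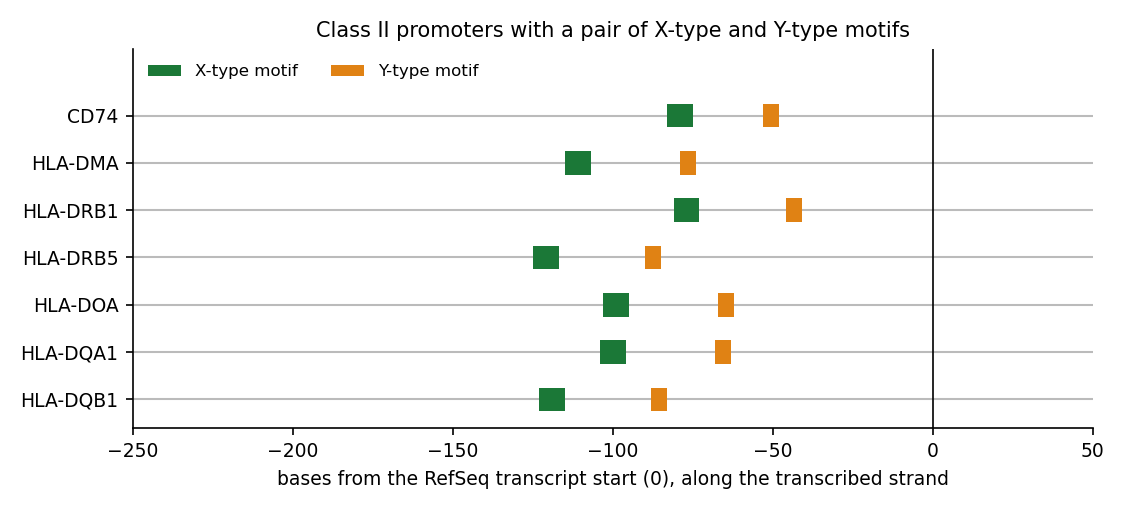
Place of the X-type (green) and Y-type (orange) motifs in 7 class II promoters that hold the pair, in bases from the RefSeq transcript start at 0, along the transcribed strand. The 4 upper rows are described genes and the 3 lower rows other class II loci (HLA-DOA, HLA-DQA1 and HLA-DQB1); the X-type motif starts between -125 and -81 and the Y-type between -90 and -46.

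The libraries held 9249738 to 13328002 counts, the lowest in replicate 3 of shUGDH-1. The mean UGDH level in CPM (counts scaled to a common library size) was 53.0 ± 2.67 in shNT, 7.65 ± 0.367 in shUGDH-1 and 7.17 ± 0.802 in shUGDH-2 libraries (SD, n = 3). Its log2 difference from shNT was -2.80 (SE 0.08) and -2.89 (SE 0.08) with edgeR adjusted p values of 3.9e-36 and 1.2e-36, and between the UGDH hairpins it was -0.09 (SE 0.13, edgeR adjusted p = 0.74). The line's high markers were abundant (VIM 2127 to 2526 CPM, AXL 2251 to 2370 CPM, CD44 1087 to 1139 CPM), PGR had 0 counts and ESR1 1 count in all. Of the 5 high markers 3 were higher and 0 lower with shUGDH-1, and 2 higher and 1 lower with shUGDH-2. The line's low list otherwise held ERBB2 at 114 to 129 CPM, CDH1 at 0.15 to 1.10 CPM and EPCAM at 7.40 to 11.8 CPM, of which 2 were tested, with 2 higher with shUGDH-1 and 1 higher with shUGDH-2.

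With shUGDH-1, 7 of the 9 genes were lower than with shNT and the other 2, HLA-DMA and CIITA, overlapped the control libraries. With shUGDH-2 all 9 were higher than with shNT in every library. The HLA-DR, HLA-DP and HLA-DMB genes fell to between 58.6% and 63.2% of their control level with shUGDH-1 and stood between 116% and 137% with shUGDH-2, so that the 2 hairpins lay on opposite sides of the control. CD74 took the same direction with a smaller distance, at 89.1% and 120% of the control level. The libraries are bulk RNA, in which fewer cells that express class II genes and less class II RNA per cell cannot be told apart.

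**Figure D2:**
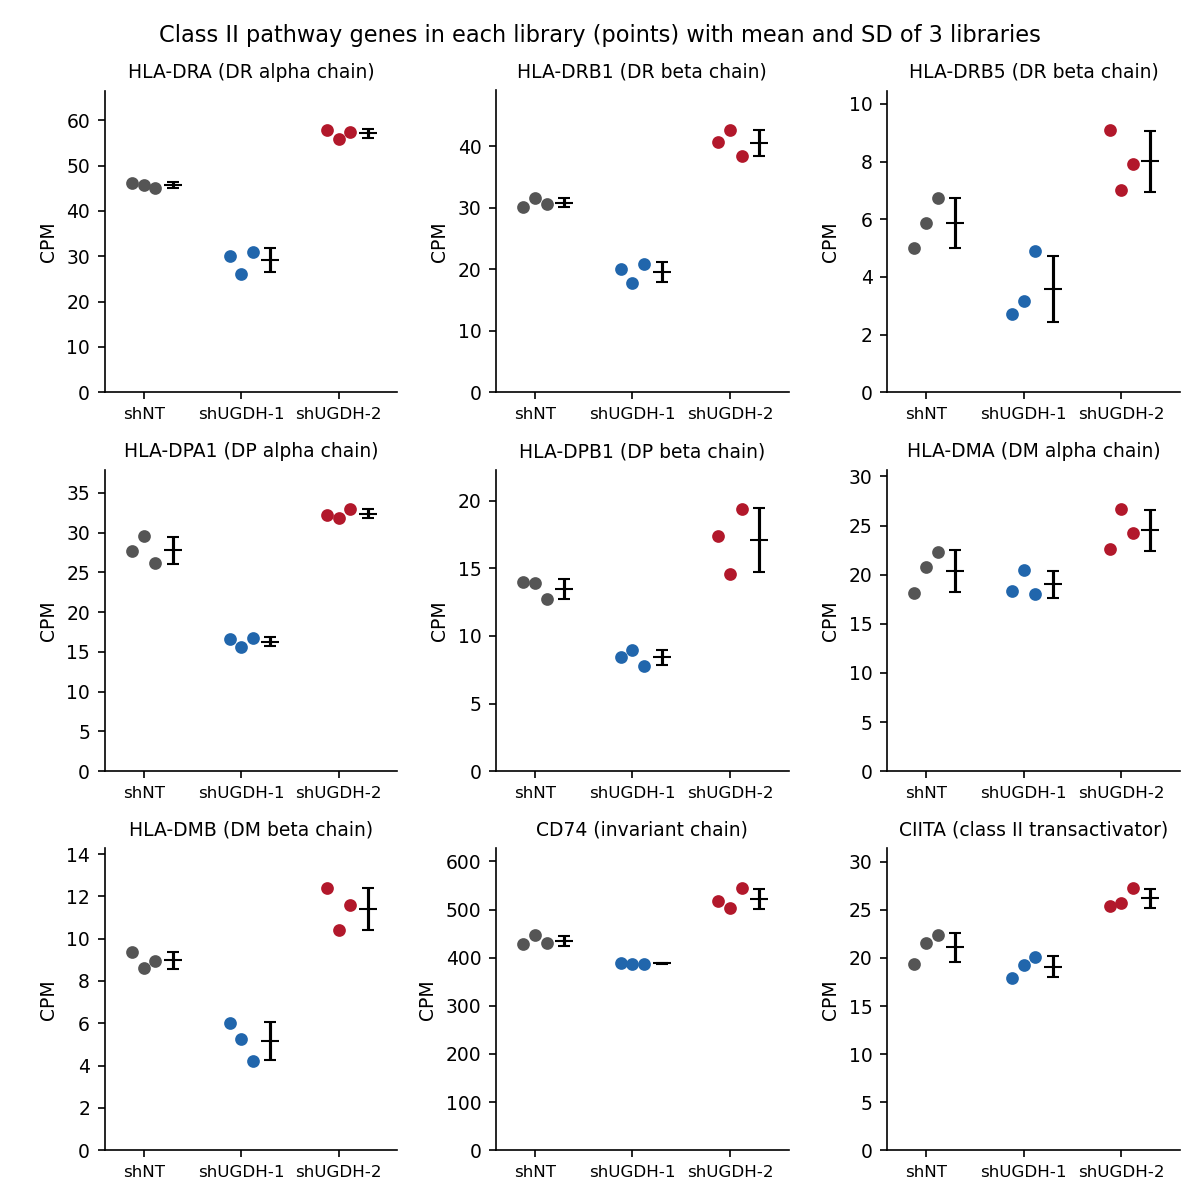
Level of the 9 genes in CPM in each of the 9 libraries (points, replicates 1 to 3 from left to right), with mean and SD of the 3 libraries per group (bars), each panel on its own axis from 0. The shUGDH-2 libraries (red) lie above all shNT libraries (grey) in every panel, and the shUGDH-1 libraries (blue) lie below them in all panels but HLA-DMA and CIITA.

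HLA-DRA encodes the nearly invariant alpha chain of the DR molecule and lies on chromosome 6 (GRCh38, 32439842 to 32445046, plus strand). Its level was 46.2, 45.8 and 45.1 CPM in the shNT libraries, 30.1, 26.1 and 31.0 CPM with shUGDH-1 and 57.9, 55.8 and 57.5 CPM with shUGDH-2. The groups did not overlap, and the spread within each was at most 2.62 CPM (SD). The log2 difference from shNT was -0.66 (SE 0.06) with shUGDH-1 and 0.32 (SE 0.05) with shUGDH-2. Raw counts behind these values ran from 286 to 725.

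HLA-DRB1, the main beta chain gene of DR (GRCh38, chromosome 6, 32578769 to 32589848, minus strand), followed its partner closely. It stood at 30.2, 31.6 and 30.6 CPM with shNT, at 20.1, 17.8 and 20.9 CPM with shUGDH-1, and at 40.8, 42.7 and 38.5 CPM with shUGDH-2, again without overlap. The log2 differences from shNT were -0.66 (SE 0.07) and 0.40 (SE 0.06). Across the 9 libraries HLA-DRA and HLA-DRB1 had the highest Pearson correlation of log2 CPM of any pair among the 9 genes, 0.992.

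HLA-DRB5, a second DR beta chain gene carried by some haplotypes (GRCh38, chromosome 6, 32517343 to 32530287, minus strand), was the thinnest of the set, with 35 to 108 counts per library. It had 4.99, 5.87 and 6.73 CPM in shNT, 2.70, 3.16 and 4.88 CPM in shUGDH-1 and 9.10, 7.01 and 7.92 CPM in shUGDH-2 libraries. The highest shUGDH-1 library lay just below the lowest shNT library, and the highest shNT library just below the lowest shUGDH-2 library. Its log2 differences of -0.76 (SE 0.18) and 0.45 (SE 0.15) had the largest errors of the 9 genes.

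The DRB genes are paralogs, and reads that fit both could have been split between them or discarded. In the reference transcripts, 26 of 1154 windows of 76 bases of HLA-DRB1 (2.25%) occurred unchanged in HLA-DRB5. The alleles of the line itself were not used, and whether it carries HLA-DRB5 was not tested. The windows compare HLA-DRB1 with HLA-DRB5 by exact match, so reads with mismatches or from other DRB genes are not covered. HLA-DRB5 counts per HLA-DRB1 count were 0.19 ± 0.0276 with shNT, 0.182 ± 0.0496 with shUGDH-1 and 0.198 ± 0.0303 with shUGDH-2 (SD, n = 3), differences smaller than the spread. Summed into 1 gene, the pair gave log2 differences of -0.68 and 0.41 from shNT. Such a sum is the same however shared reads were divided between the genes, so it tests nothing about that division. HLA-DRB1 holds most of the summed counts. The sum therefore cannot show the direction of HLA-DRB5 alone, and it does not cover discarded reads.

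HLA-DPA1 and HLA-DPB1 encode the alpha and beta chains of the DP molecule, and lie head to head on opposite strands of chromosome 6 (GRCh38, 33064569 to 33080775, minus, and 33075926 to 33087201, plus). HLA-DPA1 had 27.7, 29.6 and 26.2 CPM in shNT, 16.6, 15.6 and 16.8 CPM in shUGDH-1 and 32.2, 31.9 and 33.0 CPM in shUGDH-2 libraries. Its log2 difference from shNT was -0.77 (SE 0.08) with shUGDH-1, and 0.22 (SE 0.07) with shUGDH-2, the smallest upward difference of the set. The 3 groups did not overlap.

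HLA-DPB1 had 14.0, 13.9 and 12.7 CPM in shNT, 8.47, 8.95 and 7.81 CPM in shUGDH-1 and 17.4, 14.6 and 19.4 CPM in shUGDH-2 libraries. The shUGDH-2 libraries spread most, with 1 of them close to the controls. The log2 differences were -0.68 (SE 0.12) and 0.33 (SE 0.10). HLA-DPA1 counts per HLA-DPB1 count were 2.06 ± 0.0694, 1.95 ± 0.202 and 1.91 ± 0.243 (SD, n = 3) in shNT, shUGDH-1 and shUGDH-2, so the chains of DP moved together within the spread. Exons of the pair overlap, and as the use of strand in counting is not given, reads in the overlap cannot be told apart.

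HLA-DMA and HLA-DMB encode the peptide-exchange partner HLA-DM, and they differed from each other. HLA-DMA (GRCh38, chromosome 6, 32948613 to 32969094, minus strand) had 18.1, 20.8 and 22.3 CPM in shNT, 18.3, 20.5 and 18.0 CPM in shUGDH-1 and 22.6, 26.7 and 24.2 CPM in shUGDH-2 libraries. The shUGDH-1 libraries lay among the controls, with a log2 difference of -0.09 (SE 0.09). The shUGDH-2 libraries lay above them at 0.27 (SE 0.08), with the lowest close to the highest control.

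HLA-DMB (GRCh38, chromosome 6, 32934629 to 32941070, minus strand) had 9.37, 8.59 and 8.94 CPM in shNT, 6.01, 5.27 and 4.23 CPM in shUGDH-1 and 12.4, 10.4 and 11.6 CPM in shUGDH-2 libraries. Its log2 difference was -0.77 (SE 0.14) with shUGDH-1 and 0.35 (SE 0.12) with shUGDH-2. HLA-DMB counts per HLA-DMA count were 0.519, 0.412 and 0.401 in the shNT libraries, 0.328, 0.256 and 0.235 in those of shUGDH-1, and 0.549, 0.389 and 0.477 in those of shUGDH-2. The beta chain was thus lower relative to its partner in every shUGDH-1 library than in any other library.

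The HLA-DMA exons overlap those of BRD2, a chromatin reader gene on the opposite strand, and of AL645941.2, which also overlaps HLA-DMB. BRD2 was the more abundant by far, at 315 ± 5.01, 301 ± 5.77 and 304 ± 8.22 CPM (SD, n = 3) with shNT, shUGDH-1 and shUGDH-2. Its log2 differences of -0.07 and -0.05 from shNT did not pass (edgeR adjusted p = 0.05 and 0.19). The share of HLA-DMA counts that could come from BRD2 reads was not tested.

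CD74 (GRCh38, chromosome 5, 150401637 to 150412929, minus strand), the invariant chain gene, lies outside the MHC region and was the most abundant of the set. It had 428, 448 and 431 CPM in shNT, 389, 387 and 387 CPM in shUGDH-1 and 517, 503 and 545 CPM in shUGDH-2 libraries. The groups did not overlap, and the log2 differences were -0.17 (SE 0.02) and 0.26 (SE 0.02). Raw counts of 3566 to 6747 per library gave these the smallest errors of the 9 genes.

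CIITA, the master regulator (GRCh38, chromosome 16, 10866222 to 10943021, plus strand), had 19.4, 21.6 and 22.4 CPM in shNT, 17.9, 19.3 and 20.1 CPM in shUGDH-1 and 25.4, 25.7 and 27.3 CPM in shUGDH-2 libraries. The shUGDH-1 libraries overlapped the controls, at a log2 difference of -0.15 (SE 0.08), and the shUGDH-2 libraries lay above both groups, at 0.31 (SE 0.08) from shNT. The gene was read at 185 to 338 counts per library. Its exons overlap those of DEXI on the opposite strand and of AC133065.1 and AC133065.3. DEXI, at 11.1, 14.7 and 13.2 CPM with shNT, shUGDH-1 and shUGDH-2, rose with shUGDH-1 (log2 difference 0.42, SE 0.10, edgeR adjusted p = 0.0019), opposite in sign to CIITA, and had a difference of 0.25 (SE 0.11, edgeR adjusted p = 0.11) with shUGDH-2. What DEXI reads add to the CIITA counts was not tested.

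**Figure D3:**
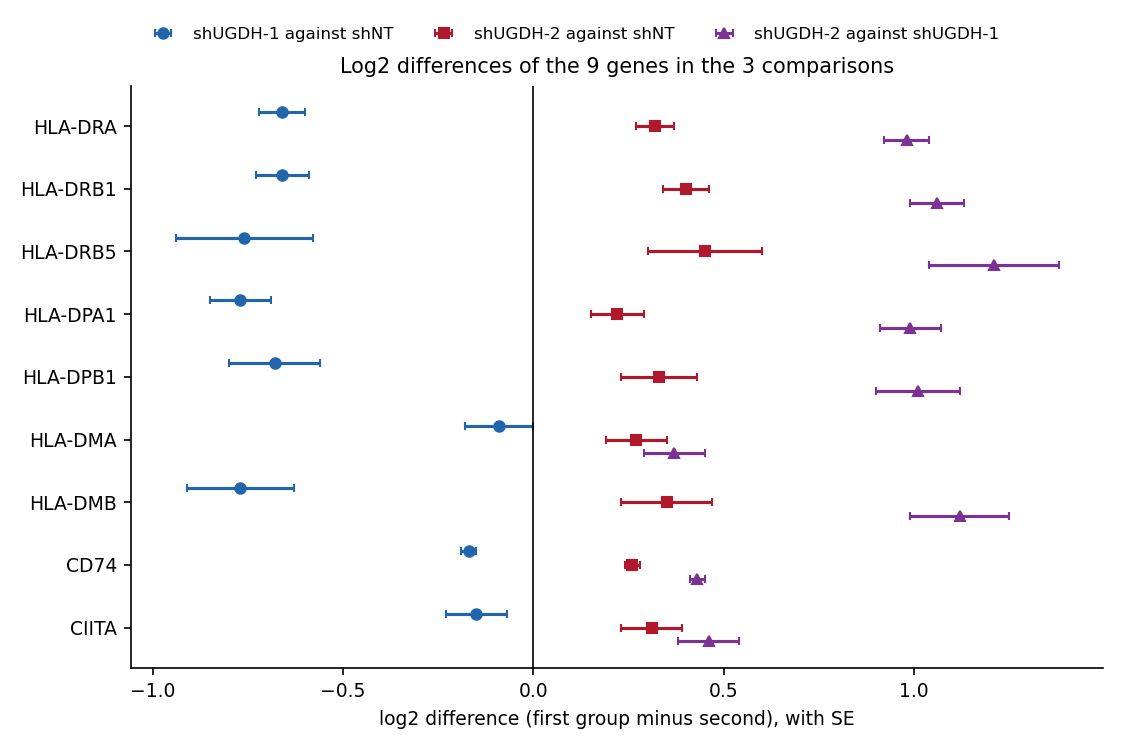
Log2 differences of the 9 genes in the 3 comparisons, first group minus second, with SE from the edgeR fit over all 9 libraries. The shUGDH-1 values (blue circles) run from -0.77 to -0.09, the shUGDH-2 values (red squares) from 0.22 to 0.45, and the values between the UGDH hairpins (purple triangles) from 0.37 to 1.21.

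Over the 9 genes, 0 were higher and 7 lower with shUGDH-1 at an edgeR adjusted p under 0.05, where 10.5% of all 12546 genes were higher and 10.3% lower. All 7 lower genes had groups that did not overlap, as did 16.8% of all genes downward and 17.3% upward. The median log2 difference of the 9 was -0.66, with -0.003 over all genes, whose median size was 0.10. These calls come from the comparisons the genes were selected on, so the counts describe the choice and nothing is read from them.

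With shUGDH-2, 9 were higher and 0 lower, where 8.04% of all genes were higher and 6.81% lower. None of the 9 overlapped the controls, and 14.7% of all genes were higher without overlap and 13.9% lower. The median log2 difference was 0.32 for the 9 and -0.006 for all genes, whose median size was 0.09. With DESeq2's Wald test 4 of the 9 passed: HLA-DRA, HLA-DRB1, CD74 and CIITA. Leaving out 1 library left 5 to 9 of the 9, with 5 lacking replicate 3 of shUGDH-2, 6 lacking its replicate 1 or replicate 3 of shNT, 7 lacking replicate 1 or 2 of shNT, and 8 lacking replicate 2 of shUGDH-2. The same 4 genes passed in each of these fits. The genes were selected on these libraries, so the calls describe the choice and do not rank the genes.

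Set directly against each other, shUGDH-2 was higher than shUGDH-1 for all 9, where 5.36% of all genes were higher and 5.51% lower at the same threshold, and where 13.1% were higher and 13.9% lower without overlap. The largest differences were those of HLA-DRB5 (log2 1.21, SE 0.17), HLA-DMB (1.12, SE 0.13) and HLA-DRB1 (1.06, SE 0.07). HLA-DPB1 (1.01, SE 0.11), HLA-DPA1 (0.99, SE 0.08) and HLA-DRA (0.98, SE 0.06) lay within an SE or less of each other, near a doubling. CIITA (0.46, SE 0.08), CD74 (0.43, SE 0.02) and HLA-DMA (0.37, SE 0.08) formed a lower range. The median was 0.99 for the 9 and -0.001 over all genes, whose median size was 0.08. The genes were selected with this contrast known, so nothing is read from the number of them called. Both comparisons with shNT use the same 3 control libraries, so a stray control level would shift both differences the same way, and they are not independent.

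The genes thus moved by unequal amounts. In the shNT libraries 2.38, 2.12 and 2.01 HLA-DRA counts were read per CIITA count, with 1.68, 1.35 and 1.55 in shUGDH-1 and 2.27, 2.17 and 2.1 in shUGDH-2. HLA-DRA was lower relative to CIITA in every shUGDH-1 library than in any other, while shUGDH-2 and shNT overlapped. CD74 counts per HLA-DRA count were 9.53 ± 0.265 with shNT, 13.4 ± 1.26 with shUGDH-1 and 9.15 ± 0.301 with shUGDH-2 (SD, n = 3). The invariant chain was in larger excess over the DR alpha chain with shUGDH-1 (12.9, 14.8 and 12.5) than in any library of the other groups, whose values ran from 8.93 to 9.77.

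**Figure D4:**
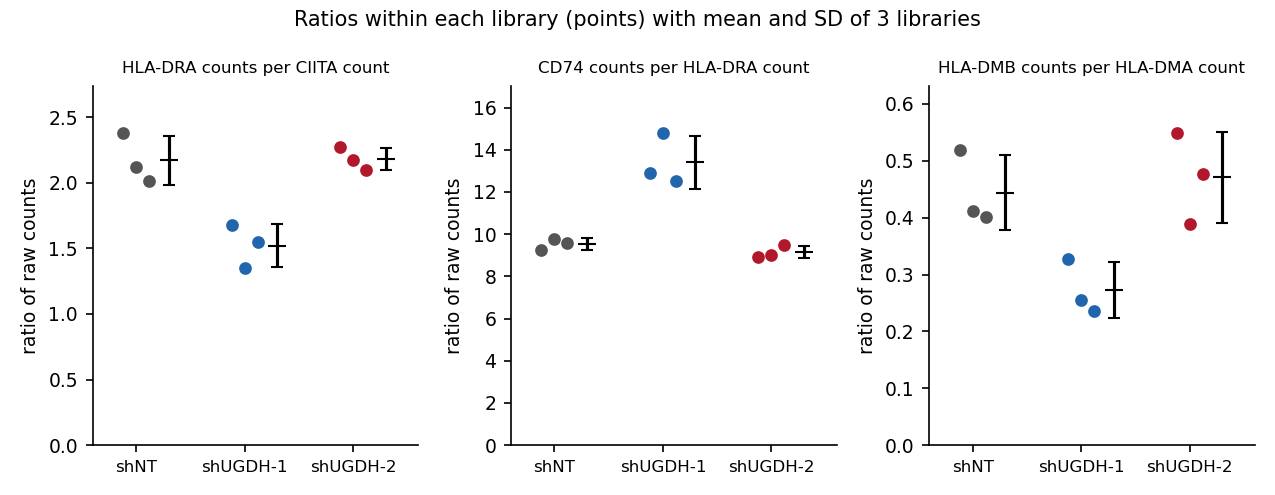
Ratios of raw counts within each library (points) with mean and SD of 3 libraries: HLA-DRA per CIITA, CD74 per HLA-DRA and HLA-DMB per HLA-DMA. The shUGDH-1 libraries (blue) stand apart from shNT (grey) and shUGDH-2 (red) in all 3 panels, at 1.52 ± 0.165, 13.4 ± 1.26 and 0.273 ± 0.0486, while shNT and shUGDH-2 overlap.

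Among the 36 pairs of the 9 genes, Pearson correlations of log2 CPM over the 9 libraries ran from 0.667 to 0.992 with a median of 0.896. HLA-DMA had the lowest values, 0.667 to 0.881, and CIITA ranged from 0.768 with HLA-DMB to 0.947 with CD74. The libraries form 3 groups, and the differences between these groups carry the correlations, which are given as a description.

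Per kilobase of transcript, which allows genes to be compared, CD74 led with 411 CPM per kb in the shNT libraries. Next came HLA-DRA at 37.3, HLA-DRB1 at 25.1, HLA-DMA at 20.3, HLA-DPA1 at 16.3, HLA-DPB1 at 8.68, HLA-DMB at 6.42, CIITA at 5.64 and HLA-DRB5 at 4.65 CPM per kb. The 3 libraries of neighbours in this order did not overlap except for CIITA and HLA-DRB5. With shUGDH-1 the order changed: HLA-DMA at 18.8 CPM per kb stood above HLA-DRB1 at 15.9, and CIITA at 5.10 above HLA-DMB at 3.70. There HLA-DPB1 overlapped CIITA, and HLA-DMB overlapped HLA-DRB5. With shUGDH-2 the order was that of the controls, from CD74 at 492 and HLA-DRA at 46.6 down to HLA-DRB5 at 6.36, and CIITA again overlapped HLA-DRB5. Lengths are medians of coding GENCODE v29 transcripts, and those of CIITA run from 2344 to 16059 bases, so its place is the least certain.

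The authors' deposited tables, made from the same libraries, give log2 differences from shNT for all 9 genes. For shUGDH-1 they hold -0.65 for HLA-DRA, -0.64 for HLA-DRB1, -0.75 for HLA-DPA1, -0.70 for HLA-DMB, -0.17 for CD74 and -0.14 for CIITA. For shUGDH-2 the authors' deposited table has 0.32 for HLA-DRA, 0.39 for HLA-DRB1, 0.21 for HLA-DPA1, 0.32 for HLA-DMB, 0.26 for CD74 and 0.30 for CIITA. The largest gap from the values above was for HLA-DRB5 with shUGDH-1, -0.58 in the authors' deposited table and -0.76 here.

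Of 9 other class II loci, 2 had enough counts for a test. HLA-DOA, the alpha chain of HLA-DO, which restrains HLA-DM, had 14, 17 and 18 counts in shNT, 9, 12 and 3 in shUGDH-1, and 16, 17 and 18 in shUGDH-2 libraries. It was lower with shUGDH-1 (log2 difference -0.98, SE 0.37, edgeR adjusted p = 0.046), a call that ended with DESeq2 (adjusted p = 0.16) and without single libraries of each group, and level with the controls with shUGDH-2 (0.03, SE 0.31, edgeR adjusted p = 0.97). The pseudogene HLA-DRB6 did not pass with either hairpin (log2 differences -0.78 and -0.21, edgeR adjusted p = 0.17 and 0.77).

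HLA-DOB, the beta chain of HLA-DO, was too low for a test. It had 5, 2 and 5 counts in shNT, 6, 11 and 4 in shUGDH-1, and 6, 3 and 4 in shUGDH-2 libraries, or 0.33 ± 0.137, 0.57 ± 0.22 and 0.35 ± 0.14 CPM (SD, n = 3). The lowest shUGDH-1 library and the highest shNT library were both at 0.43 CPM, and no difference is read from counts this low.

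The DQ genes were barely read. HLA-DQB1 had 6, 7 and 0 counts in shNT, 5, 3 and 1 in shUGDH-1, and 13, 5 and 12 in shUGDH-2 libraries. HLA-DQA1 reached at most 2 counts in a library. HLA-DRB3 and HLA-DRB4 were listed at 0 in all 9, which is not read as absence of either transcript. At this depth a difference in the DQ genes was not detectable. In every library the levels listed for these other loci stayed below the lowest HLA-DRB5 value, 2.70 CPM.

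CD74 and the HLA-D genes are also made by antigen-presenting leukocytes, so markers of those cells were read beside them. Of 22 leukocyte markers, 11 were at 0 in every library, among them CD3E, MS4A1, CD1C, SPI1, TYROBP and CD53, and PTPRC, the pan-leukocyte CD45 gene, had 5 counts over all 9 libraries. The summed level of the 22 was 30.4 to 34.9 CPM with shNT, 27.1 to 30.2 CPM with shUGDH-1 and 25.7 to 29.0 CPM with shUGDH-2, most of it from LAPTM5 (19.0 to 26.1 CPM). Of 4 tested markers, 0 were higher and 2 lower with shUGDH-1, and 0 higher and 1 lower with shUGDH-2. LAPTM5 fell with shUGDH-2 (log2 difference -0.31, edgeR adjusted p = 0.0031), where the class II genes were higher. Its value with shUGDH-1 was -0.21 (edgeR adjusted p = 0.042, 0.17 with DESeq2). CSF1R, at 2.18 to 4.93 CPM, had -0.55 with shUGDH-1 (edgeR adjusted p = 0.047, 0.2 with DESeq2) and -0.29 with shUGDH-2 (edgeR adjusted p = 0.35). CD14 (0.62 and 0.25, edgeR adjusted p = 0.075 and 0.61) and CORO1A, at 1.13 to 2.28 CPM, did not pass.

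The genes that act on the class II promoters were largely level. Of 7 promoter-binding factors (the RFX and NF-Y subunits and CREB1), 0 were higher and 1 lower with shUGDH-1, and 0 higher and 1 lower with shUGDH-2, with a median log2 difference of -0.03 in each. The 1 lower gene with shUGDH-1 was NFYC, a subunit of the Y-box factor NF-Y, at 46.2, 49.5 and 46.5 CPM in shNT, 37.2, 33.3 and 37.6 CPM in shUGDH-1 and 51.3, 47.8 and 51.1 CPM in shUGDH-2 libraries. NFYC fell by 0.40 on the log2 scale with shUGDH-1 (SE 0.06, edgeR adjusted p = 3.3e-07) and had 0.08 with shUGDH-2 (SE 0.06, edgeR adjusted p = 0.38). Between the UGDH hairpins it differed by 0.48 (SE 0.06, edgeR adjusted p = 4.1e-09).

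The other NF-Y subunits gave other values. NFYA had -0.03 with shUGDH-1 (edgeR adjusted p = 0.7) and fell with shUGDH-2 (-0.18, SE 0.04, edgeR adjusted p = 0.0013). NFYB (-0.03 and -0.15, edgeR adjusted p = 0.82 and 0.24) and the RFX subunit RFXAP (0.18 and 0.03, edgeR adjusted p = 0.64 and 0.95) did not pass.

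Of 7 CIITA cofactors, histone acetyltransferases, chromatin remodellers and elongation kinases that CIITA recruits, 1 was higher with each hairpin. It was CARM1, an arginine methyltransferase, with log2 differences of 0.13 (SE 0.03, edgeR adjusted p = 0.0021) and 0.14 (SE 0.03, edgeR adjusted p = 0.00078). The acetyltransferase genes KAT2B, EP300 and CREBBP passed with neither hairpin, at log2 differences between -0.14 and 0.09.

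Interferon-gamma reaches CIITA through its receptor, JAK kinases and IRF1, and SOCS proteins dampen the signal. Of 11 genes of this route, 1 was higher and 1 lower with shUGDH-1, and 2 higher and 1 lower with shUGDH-2, with medians of -0.02 and 0.01. SOCS3 rose with both (0.30, SE 0.06, edgeR adjusted p = 7.8e-05, and 0.34, SE 0.06, edgeR adjusted p = 1.1e-05). SOCS1 rose with shUGDH-2 (0.43, SE 0.09, edgeR adjusted p = 0.00027) and had 0.20 with shUGDH-1 (edgeR adjusted p = 0.11).

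IRF1, the transcription factor that acts on the interferon-responsive CIITA promoter, was lower with shUGDH-1 and not higher with shUGDH-2 by the test. It stood at 289, 294 and 302 CPM in shNT, 272, 274 and 280 CPM in shUGDH-1 and 305, 299 and 312 CPM in shUGDH-2 libraries. The differences were -0.10 (SE 0.03, edgeR adjusted p = 0.0028) and 0.05 (SE 0.03, edgeR adjusted p = 0.22), and 0.15 between the UGDH hairpins (SE 0.03, edgeR adjusted p = 1.6e-05).

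Of 8 factors known to silence CIITA, among them Polycomb subunits and histone deacetylases, 1 was higher and 2 lower with each hairpin. SIN3A, a corepressor scaffold, had 0.16 and 0.13 (edgeR adjusted p = 0.0021 and 0.02). HDAC2, a histone deacetylase, fell with shUGDH-1 by 0.15 on the log2 scale (SE 0.03, edgeR adjusted p = 0.00016), while its shUGDH-2 libraries, at 193 to 198 CPM, lay with the controls at 193 to 201 CPM. With DESeq2 the calls in this list with shUGDH-2, SIN3A and the Polycomb genes SUZ12 (-0.14) and EED (-0.22), came to 0, and SUZ12 with shUGDH-1 (-0.11) was lost as well.

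**Figure D5:**
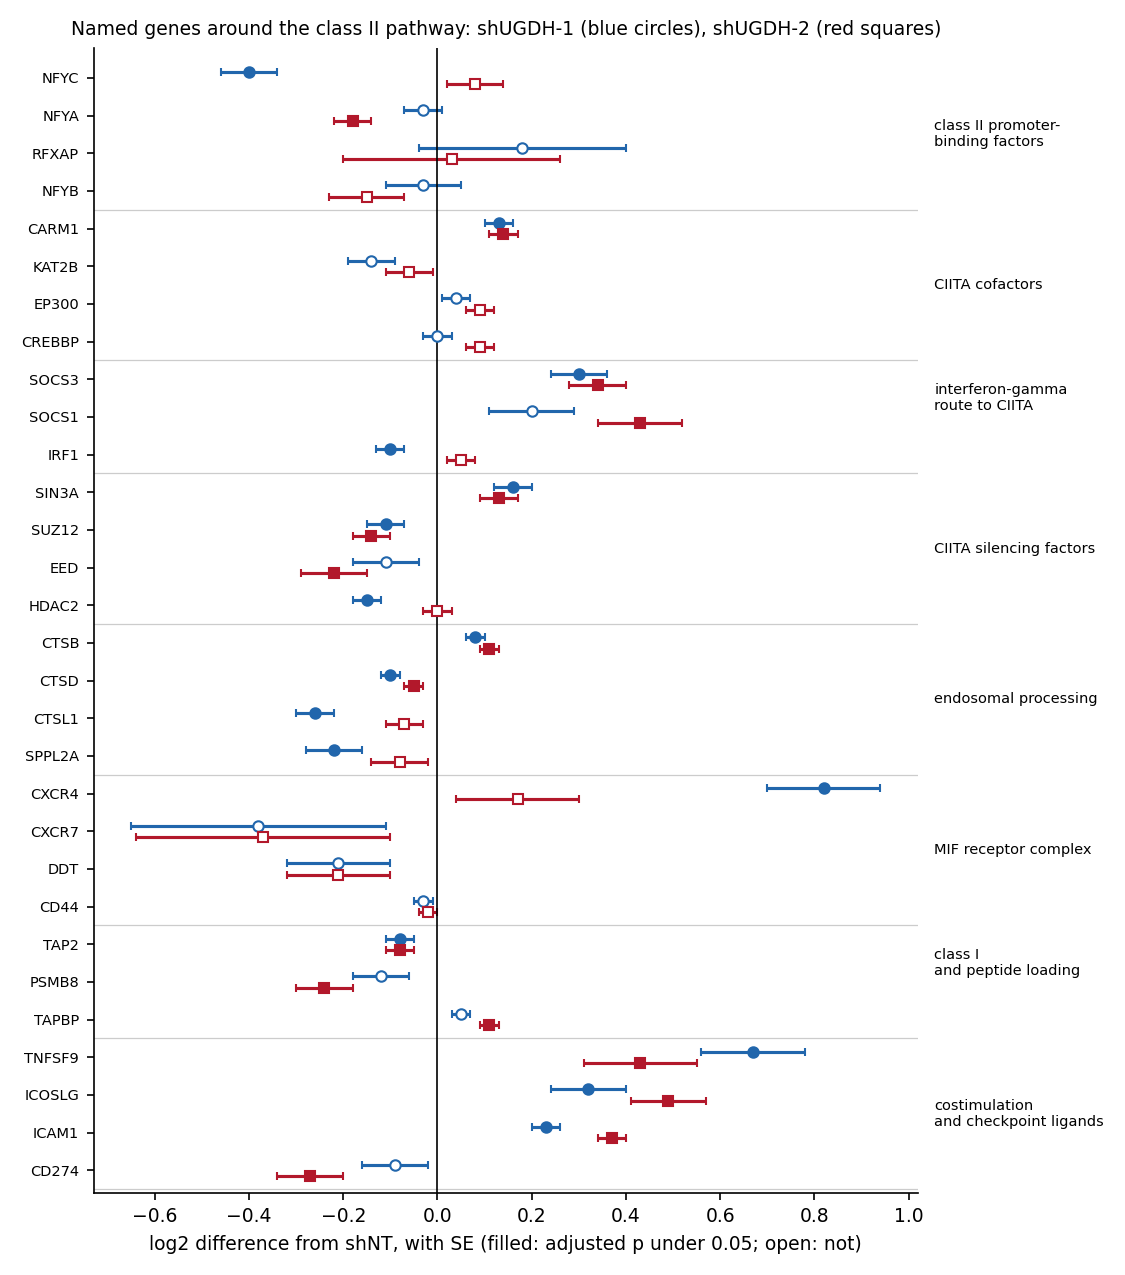
Log2 differences from shNT with SE for up to 4 named genes of each of 8 lists around the class II pathway, with shUGDH-1 as blue circles and shUGDH-2 as red squares, filled where the edgeR adjusted p was under 0.05. NFYC with shUGDH-1 (-0.40) and CXCR4 with shUGDH-1 (0.82) stand away from the shUGDH-2 value of the same gene, while SOCS3 and ICAM1 lie on the same side with both hairpins.

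Class II peptides are cut in endosomes by cathepsins, which also trim the invariant chain. Of 11 genes of endosomal processing, 2 were higher and 4 lower with shUGDH-1, and 2 higher and 1 lower with shUGDH-2, with medians of -0.01 and 0.02. CTSL1, the file's symbol for cathepsin L, stood at 116, 120 and 122 CPM in shNT, 101, 99.4 and 99.4 CPM in shUGDH-1 and 112, 115 and 114 CPM in shUGDH-2 libraries. It fell with shUGDH-1 (-0.26, SE 0.04, edgeR adjusted p = 2.8e-07) and had -0.07 with shUGDH-2 (edgeR adjusted p = 0.22). The 2 hairpins differed by 0.19 (SE 0.04, edgeR adjusted p = 0.00024).

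SPPL2A, the membrane protease that clears the last CD74 fragment, fell with shUGDH-1 (-0.22, SE 0.06, edgeR adjusted p = 0.0052), a call lost without replicate 1 of shUGDH-1, and had -0.08 with shUGDH-2 (edgeR adjusted p = 0.42). CTSD, cathepsin D, fell by 0.10 with shUGDH-1 on the log2 scale (edgeR adjusted p = 8e-06), and its -0.05 with shUGDH-2 (edgeR adjusted p = 0.037) was not called by DESeq2. CTSB, cathepsin B, was higher by 0.08 and 0.11 (edgeR adjusted p = 0.015 and 0.00057), the first of which was not called by DESeq2 (adjusted p = 0.057).

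CD74 at the cell surface is also the receptor of the cytokine MIF, with CD44 and chemokine receptors as partners. Of 6 genes of this complex 4 were tested, and MIF itself and CXCR2 were listed at 0 in the count table, which is not read as absence of either transcript. CXCR4 had 6.91, 7.48 and 8.43 CPM in shNT, 12.4, 13.5 and 14.5 CPM in shUGDH-1 and 9.01, 9.16 and 7.43 CPM in shUGDH-2 libraries. It rose with shUGDH-1 (log2 difference 0.82, SE 0.12, edgeR adjusted p = 1.7e-07), where CD74 was lower, and had 0.17 with shUGDH-2 (edgeR adjusted p = 0.43). The hairpins differed by -0.65 (SE 0.11, edgeR adjusted p = 2.2e-05). CD44, the signalling partner, DDT and CXCR7 did not pass with either hairpin.

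Class I genes, which share the interferon route and present peptides to CD8 T cells, moved little. Of 12 genes of class I and its peptide loading, 0 were higher and 2 lower with shUGDH-1, 1 higher and 3 lower with shUGDH-2, and 0 differed between the UGDH hairpins at an edgeR adjusted p under 0.05. PSMB8, an immunoproteasome subunit, fell with shUGDH-2 (-0.24, SE 0.06, edgeR adjusted p = 0.002). TAPBP, the tapasin gene, rose with shUGDH-2 by 0.11 (edgeR adjusted p = 0.00012), and the calls of TAP2 (-0.08 with each hairpin) were lost with DESeq2.

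T cells that meet class II also read costimulatory and checkpoint ligands. Of 8 tested genes of 11, 3 were higher and 0 lower with shUGDH-1, and 4 higher and 1 lower with shUGDH-2. ICAM1, the adhesion ligand of T cells, stood at 263 ± 7.52 CPM with shNT, 307 ± 7.33 CPM with shUGDH-1 and 341 ± 7.22 CPM with shUGDH-2 (SD, n = 3), and rose with both hairpins (0.23 and 0.37, SE 0.03 each, edgeR adjusted p = 8.6e-10 and 6.7e-18). ICOSLG, the ICOS ligand, rose with both (0.32 and 0.49, edgeR adjusted p = 0.0019 and 2.3e-06), and TNFSF9 rose with shUGDH-1 (0.67, edgeR adjusted p = 5.6e-06). TNFSF9 had 0.43 with shUGDH-2 (edgeR adjusted p = 0.0072, and 0.051 with DESeq2). CD274, the PD-L1 gene, had -0.09 with shUGDH-1 (edgeR adjusted p = 0.44) and -0.27 with shUGDH-2 (edgeR adjusted p = 0.0072, and 0.059 with DESeq2).

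Genes whose log2 CPM over the 9 libraries was most like the mean standardised pattern of the 9 were named from 10358 genes with a mean of at least 5 CPM. The highest Pearson correlations were those of AFAP1 (0.991), GPR116 (0.989), HUWE1 (0.988), SEC31A (0.979), STC1 (0.977) and WNT7B (0.977). STC1 had mean levels of 310, 250 and 337 CPM with shNT, shUGDH-1 and shUGDH-2, and WNT7B 37.8, 32.2 and 43.5 CPM, ranges narrower than those of the HLA-DR genes. At the other end stood MAVS (-0.98; 250, 279 and 222 CPM), IFIT2 (-0.98; 66.0, 75.0 and 60.3 CPM) and ENDOD1 (-0.974; 72.7, 87.8 and 65.1 CPM). With 3 groups behind 9 libraries, such values describe a shared order of the groups.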

How the data were processed

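RNA-seq libraries (RNeasy extraction, NuGen Ovation Universal Plus mRNA-Seq kit, Illumina NextSeq read pairs, per the labels' protocols) gave 9 columns of raw read counts per gene, deposited by the authors. Per the submitters' processing notes, STAR, DESeq, DESeq2 and hg19 were used. Tool versions, the annotation, the counter and the strand setting were not given in the sources used here. Per the file headers, the tables of comparisons that the authors deposited list an averaged signal named baseMean, a log2 fold change and its SE, and a raw and an adjusted p-value. Only the log2 values and their SE were used.

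The 28 entries whose symbols had become dates, with 0.232% of the counts, stayed in the fit unnamed. Genes were filtered with filterByExpr (12546 left, with 99.93% of the counts), given TMM factors of 0.997 to 1.003, and fitted with edgeR 4.0.16 in R 4.3.3 by robust quasi-likelihood over all 9 libraries, a mean per group, with 6 residual degrees of freedom. Quasi-likelihood tests were adjusted by Benjamini-Hochberg over all 12546 genes, with a threshold of 0.05. CPM are counts scaled to TMM library sizes, and SE is the log2 difference over the root of F. In data simulated on shUGDH-1 against shNT, with 12526 genes tested, the fit recovered 68.7% of genes changed 1.25-fold, 91% at 1.5-fold and 100% at 2-fold, with 7 false calls. Replicates varied more than counting alone allows (variance ratio 1.2 to 1.91 per pair), so none looked like a library deposited again. Their spread beyond counting was small, with a common coefficient of variation of 0.0202 in the fit. The ratios cannot show how separately the replicates were prepared.

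The 9 genes, the 12 gene and marker lists and the tests were chosen with earlier results of these data known. Named were all 9 genes, UGDH, up to 4 genes per list above a mean level of 1 CPM (called with both hairpins first, then with 1, then by size), and the 6 genes most and 3 least like the set. A few genes that this rule names are not reported here. BRD2 and DEXI were added because their exons overlap. Alternatives were DESeq2 1.42.0 (Wald test), its size factors in edgeR, no filter, fits of 2 groups, a replicate block, each library left out, and HLA-DRB1 and HLA-DRB5 summed. Gene positions and lengths come from GENCODE v29 (GRCh38), promoters from RefSeq (GRCh38.p14), which are not the hg19 build of the files. Coordinates were not converted.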

Additional observations from a re-analysis of the deposited data

Results flagged for a closer look

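For 7 of the 9 genes every shUGDH-1 library lay below every shNT library and every shUGDH-2 library above, while UGDH stood at 7.65 CPM in the first and 7.17 CPM in the second. Over all 12546 genes, 16.8% were lower without overlap with shUGDH-1 and 14.7% higher without overlap with shUGDH-2. The share of genes with both was not counted, so how unusual the joint pattern is cannot be read here. The log2 difference of shUGDH-2 over shUGDH-1 was 0.98 for HLA-DRA, 1.06 for HLA-DRB1, 1.21 for HLA-DRB5, 0.99 for HLA-DPA1, 1.01 for HLA-DPB1, 1.12 for HLA-DMB and 0.43 for CD74. As the genes were selected with this in view, the difference is given as a description, with no p-value.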

How the results depend on the processing

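The log2 difference of each of the 9 genes kept its sign in all 3 comparisons under all 14 alternatives and moved by less than the spread between replicates. The same held with HLA-DRB1 and HLA-DRB5 summed. DESeq2's Wald test called fewer genes than edgeR over the whole table: 866 higher and 745 lower for shUGDH-1 (1318 and 1287 with edgeR), 589 and 367 for shUGDH-2 (1009 and 855), and 400 and 376 between the UGDH hairpins (672 and 691). Leaving out 1 library at a time gave 1042 to 1342 higher and 943 to 1257 lower genes for shUGDH-1, 756 to 1031 and 496 to 815 for shUGDH-2, and 488 to 830 and 475 to 797 between them; the 496 came without replicate 1 of shUGDH-2. The median of the 9 genes ran from -0.67 to -0.59 for shUGDH-1, 0.28 to 0.34 for shUGDH-2 and 0.96 to 1.01 between the UGDH hairpins, and the -0.59 came without replicate 2 of shUGDH-1. The number of the 9 genes that passed was 7 lower with shUGDH-1 and 9 higher between the hairpins in every alternative. All alternatives refit the libraries on which the genes were selected, so nothing is read from these calls being kept. The deviations of same-numbered libraries from their group means had correlations of -0.0412 to 0.0694, and those of other libraries -0.0457 to 0.0498. Counting noise weighs on such values, so they cannot decide whether the numbers pair the libraries. A replicate block gave 1298 higher and 1284 lower genes for shUGDH-1, 993 and 864 for shUGDH-2, and 658 and 668 between the hairpins, and changed no call among the 9. Of 43 named list genes, 25 passed with shUGDH-1 and 14 of them in all alternatives. For shUGDH-2 these numbers were 23 and 13, and between the hairpins 11 and 8. Genes called against shNT were named first, so these numbers follow from the naming rule and give no share of the lists. Depth limits HLA-DRB5, HLA-DMB, HLA-DOA and the DQ genes most.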
